A study of Mus musculus with 32 samples.

Results

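NMDA receptors are glutamate-gated cation channels of excitatory synapses that open only when glutamate, a co-agonist (glycine or D-serine) and depolarization of the membrane coincide, and the calcium they admit drives synaptic plasticity. Every receptor contains the obligatory GluN1 subunit, which binds the co-agonist, together with GluN2 subunits, which bind glutamate and set the kinetics of the channel, or GluN3 subunits, which lower its calcium permeability. In hippocampal neurons GluN2B predominates early in life and GluN2A joins it as synapses mature. The RNAs of these subunits were followed here: 6 genes of the 55573 in the deposited count table, chosen by symbol, namely Grin1 (GluN1), Grin2a, Grin2b, Grin2c and Grin2d (GluN2A to GluN2D) and Grin3a (GluN3A). All 6 were detected in each of the 16 RNA-seq libraries and passed the filter on low counts in all 8 comparisons described below.

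Hippocampal neurons of newborn mice, pooled by litter, were grown on a porous membrane that lets neurites (axons and dendrites) through and holds back cell bodies, so that soma and neurites could be scraped off separately at day 15 in vitro (DIV15). The wild-type (WT) cultures came from C57BL/6 mice and the Mettl3 KO cultures from Mettl3 Flox/Flox mice, which carry loxP-flanked Mettl3, the catalytic subunit of the complex that writes N6-methyladenosine (m6A) into mRNA. Both genotypes received an adeno-associated virus with Cre recombinase and dTomato under the neuronal hSyn promoter at DIV7, so the WT cultures carried Cre as well, and glial cells, which Ara-C was given to hold back, were not expected targets of the deletion. All cultures, controls included, were silenced for 16 h with 1 µM TTX, a sodium channel blocker, and 50 µM D-AP5, a competitive antagonist at the glutamate site of NMDA receptors, so each value of the receptor RNAs below was taken under blockade of the receptor itself. The cultures called Ctrl received nothing else, and those called KCl were in addition depolarized with 55 mM KCl for 2 h. Each of the 8 groups (genotype, compartment, treatment) held 2 libraries from distinct litters, with Ctrl and KCl cultures taken from the same litter. The soma fraction can also hold neurites that did not pass the pores. In such bulk samples, fewer cells of a type and less RNA per cell cannot be told apart.

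The libraries held 33789183 to 71394235 counted fragments. Of 10 genes known to respond to activity, 10 were called higher with KCl in WT soma and 10 in WT neurites. Mettl3 itself lay between 8.90 and 17.3 CPM (read counts scaled to a common library size) in the WT libraries and between 3.88 and 11.6 CPM in the Mettl3 KO libraries. In each compartment and treatment both KO libraries were below both WT libraries, although the adjusted p was 0.624 in soma and 0.423 in neurites (Ctrl, edgeR). The counts cover all exons of the gene, also those that Cre leaves in place. The neuronal markers were present in every library, and so were those of the other cell types: no gene of the 7 cell type lists was at 0 in any library. The 2 libraries of the Mettl3 KO KCl culture 1 stood apart, with a summed level of 7 oligodendrocyte lineage markers of 3550 CPM in soma and 7037 CPM in neurites against 57.2 to 203 CPM in the other 14 libraries, of 11 astrocyte markers of 9592 and 18572 CPM against 1201 to 7152 CPM, and of 10 neuronal markers of 1995 and 1097 CPM, the lowest of all. The KO libraries also differed more from each other: the SD over 15170 genes of the log2 ratio between the 2 libraries of a group was 0.19 to 0.40 in the WT groups and 0.55 to 1.45 in the KO groups.

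Grin1, Grin2a and Grin2b made up nearly all of the receptor RNA in WT soma. Levels of different genes are compared here only per length, as CPM per kilobase of the exon length deposited with the counts. On that scale the WT soma Ctrl means were 15.3 for Grin1, 11.5 for Grin2b, 9.38 for Grin2a, 1.25 for Grin3a, 0.764 for Grin2d and 0.129 for Grin2c (n = 2 each). The order of Grin2b, Grin2a, Grin3a, Grin2d and Grin2c held in 8 of 8 WT libraries, whereas Grin1 was above Grin2b in 7 of 8. The position of Grin1 depends on the length used. Per kilobase of coding sequence, the WT soma Ctrl means were 51.4 for Grin1 and 64.2 for Grin2b, and Grin1 was above Grin2b in 2 of 8 WT libraries. The order of Grin1 and Grin2b was therefore not settled by these data. They differ in the share of untranslated sequence, with a 3′ UTR of 1187 bases in the Grin1 transcript with the longest coding sequence and of 18865 bases in that of Grin2b.

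Within WT, Grin2a, Grin2b and Grin3a varied little between libraries. Grin2a, the subunit of mature synapses, lay between 146 and 181 CPM in the 8 WT libraries with a median of 158, and Grin2b, the subunit of early synapses, between 245 and 345 CPM with a median of 275. Grin3a, known for juvenile synapses, lay between 14.5 and 18.5 CPM with a median of 15.6. Grin2d, known from interneurons and early development, lay between 3.17 and 6.01 CPM with a median of 4.85. Grin2c, best known from the cerebellum and from astrocytes, lay between 0.380 and 1.45 CPM, which corresponds to 16 to 75 fragments a library, so its values carry the largest counting error of the 6. Grin1 had the widest range of the abundant members, from 89.2 to 268 CPM, and its values followed both the compartment and the treatment, as described below.

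**Figure D1:**
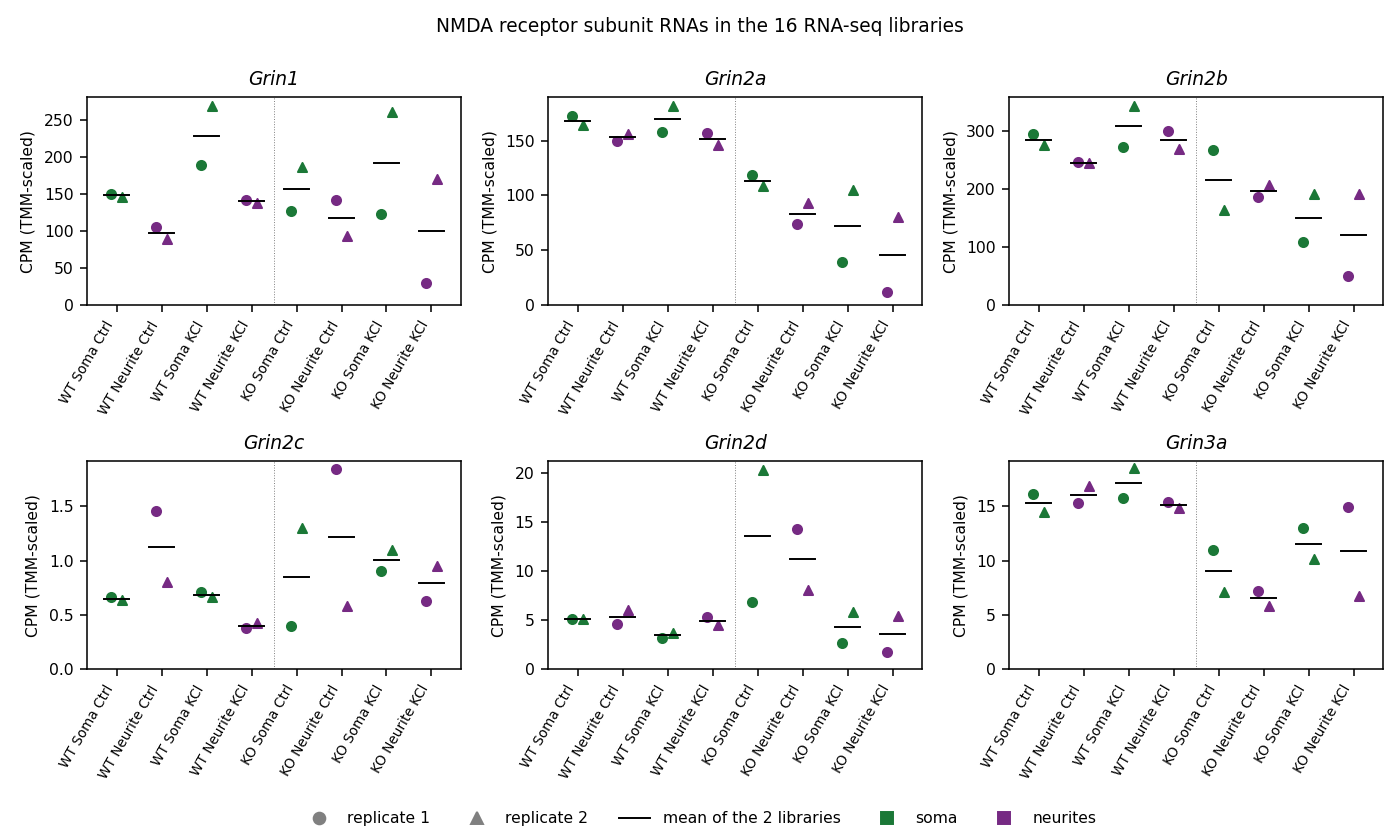
Level of each subunit RNA in TMM-scaled CPM (linear axis from 0) in the 8 groups, with 1 point per library (circle, replicate 1; triangle, replicate 2), soma in green and neurites in purple, and a line at the mean of the 2 libraries. Grin1 is lower in WT neurites than in WT soma and higher with KCl, Grin2a lies between 146 and 181 CPM in all 8 WT libraries, and the KO pairs spread widely, with Grin1 at 30.4 and 170 CPM in the 2 KO KCl neurite libraries.

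The make-up of the GluN2 pool was expressed as the share of each of the 4 Grin2 RNAs in their sum per exon length. In WT soma Ctrl, Grin2b took 53.1% and 52.6% of the pool and Grin2a 42.9% and 43.2% in the 2 libraries. In WT neurites Ctrl, Grin2b took 51.6% and 50.2% and Grin2a 43.3% and 44.4%. Both compartments thus held the same mixture to within a few percentage points, and Grin2c and Grin2d together remained the small remainder, with Grin2d at 3.40% and 3.61% in soma and between 3.60% and 4.60% in neurites. With KCl, the share of Grin2b was 53.9% and 56.2% in soma and 55.6% and 55.1% in neurites, and that of Grin2d 2.33% and 2.25% in soma and 3.67% and 3.39% in neurites. The share of Grin2d in KCl soma was thus the lowest of the WT groups and did not overlap with any other WT group. In the KO libraries the pool was less uniform, with 41.4% to 66.0% Grin2b, 21.5% to 39.9% Grin2a and 5.51% to 19.0% Grin2d. The lowest share of Grin2a and the highest of Grin2b were both in the neurites of the KO KCl culture 1, and the lowest share of Grin2b and the highest of Grin2d were both in replicate 2 of KO soma Ctrl. The shares depend on the length: by coding length, Grin2b took 61.8% of the pool in WT soma Ctrl and 60.2% in WT neurites Ctrl on average.

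**Figure D2:**
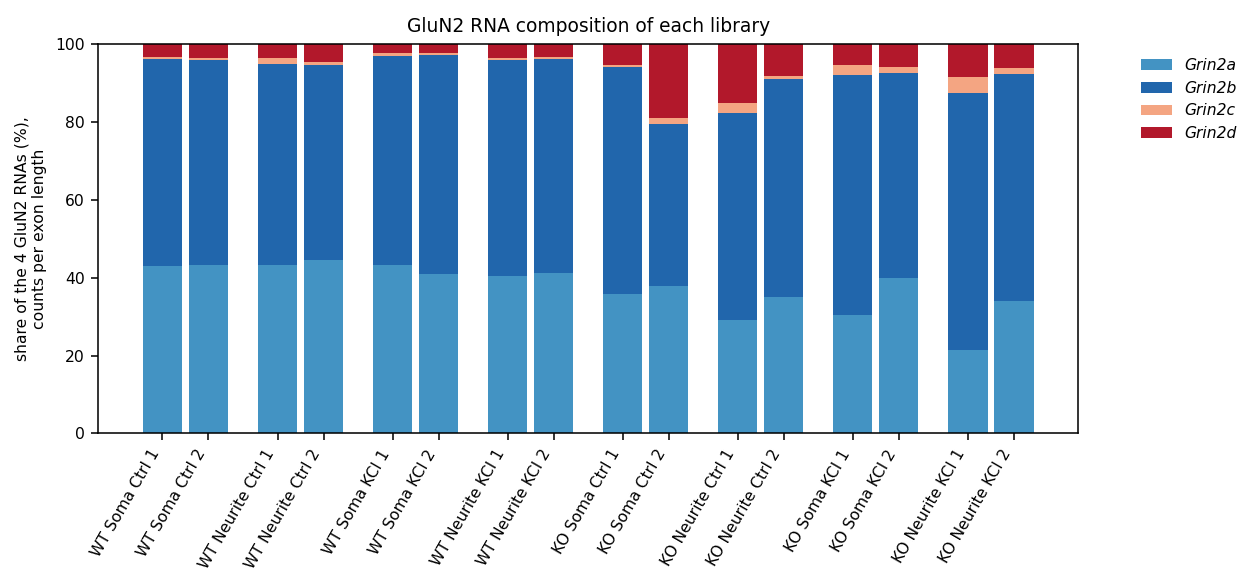
Share of Grin2a, Grin2b, Grin2c and Grin2d (%, linear axis from 0 to 100) in the sum of the 4 GluN2 RNAs, as counts per deposited exon length, with 1 bar per library. Grin2b takes between 50.2% and 56.2% in the 8 WT libraries, and the Grin2d share reaches 19.0% in 1 KO soma Ctrl library.

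m6A was mapped with DART-seq, in which a fusion of the cytidine deaminase APOBEC1 and the m6A-binding YTH domain converts cytidines beside m6A to uridine (C2U) in purified RNA. The deposited values are the authors' averages over libraries, so they carry no replicate spread and no test was made. Called sites had been required to be covered by at least 50 reads, although the depth at each one is unknown here, to be edited more in WT than in the Mettl3 KO and to lie in a RAC context (R is A or G). A lower score in the KO and the presence of the motif were therefore fixed by the selection. Of the 6 receptor RNAs, 2 have called sites. Grin1 has 8, more than 92.5% of the 5643 RNAs with any called site, whose median is 2 sites. That count was not matched for the level of the RNAs, on which coverage depends. Grin2d has 1 site. No site is listed under Grin2a, Grin2b, Grin2c or Grin3a, and none within 5 kb past their 3′ ends on the same strand. Such a missing entry does not show that an RNA is unmethylated, since an unmethylated RNA and sites that were not called or not listed cannot be told apart.

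The 21 bases around each edited base are shown because they hold the called sites of the receptor RNAs. They are written 5′ to 3′ along the RNA, as DNA letters of the mouse genome (GRCm38, minus strand of chromosome 2 for Grin1 and of chromosome 7 for Grin2d), with the AAC or GAC that ends on the edited cytidine in capitals and exons numbered along Grin1-204 and Grin2d-201, the transcripts with the longest coding sequence in GENCODE M21. The letters of the annotation's reference do not show methylation, which the method places at the A before the capital C.
Grin1 exon 6 (chr2:25305351-25305371): cgatgctgAACatgactggct
Grin1 exon 8 (chr2:25303975-25303995): aggatgggGACcggaagtttg
Grin1 exon 12, upstream site (chr2:25297934-25297954): aggtaaacAACagcaacaaaa
Grin1 exon 12, downstream site (chr2:25297794-25297814): cagggcctGACcattctggtc
Grin1 exon 14 (chr2:25297376-25297396): tcctgctcAACtctggcattg
Grin1 exon 16 (chr2:25296982-25297002): aactgtaaAACagagctctgt
Grin1 exon 20 (chr2:25294509-25294529): cagagcccGACcctaaaaaga
Grin1 exon 21 (chr2:25292459-25292479): cgggggtgGACgcggcgcttt
Grin2d exon 12 (chr7:45832522-45832542): agcccaccGACtcttttttaa

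All 8 Grin1 sites lie in coding sequence, from base 989 to base 2988 of a transcript of 4276 bases, and none lies in its 3′ UTR of 1187 bases. The site of Grin2d lies in the 3′ UTR in 2 of its 3 protein-coding transcripts. The Grin1 sites with the highest editing were the upstream site of exon 12, at 7.19% C2U, and the site of exon 16, at 6.63%. The sites of exons 20, 6, 14 and 21 were edited at 2.82%, 2.39%, 1.20% and 1.02%. The downstream site of exon 12, at 0.785%, and that of exon 8, at 0.748%, were the lowest. Over all 18231 listed sites the median C2U fraction was 0.0354 on a scale from 0 to 1. Only the Grin1 sites at 7.19% and 6.63% were above it. The 2 strongest of the 8 thus lie in the middle of the RNA, at bases 1748 and 2328, and both are AAC. The sites of exons 20 and 21 are coding in 4 of the 8 protein-coding transcripts of Grin1, whose 3′ exons are alternatively spliced, and the others are coding in 8 of 8. The Grin2d site was edited at 9.34%, above each Grin1 site.

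**Figure D3:**
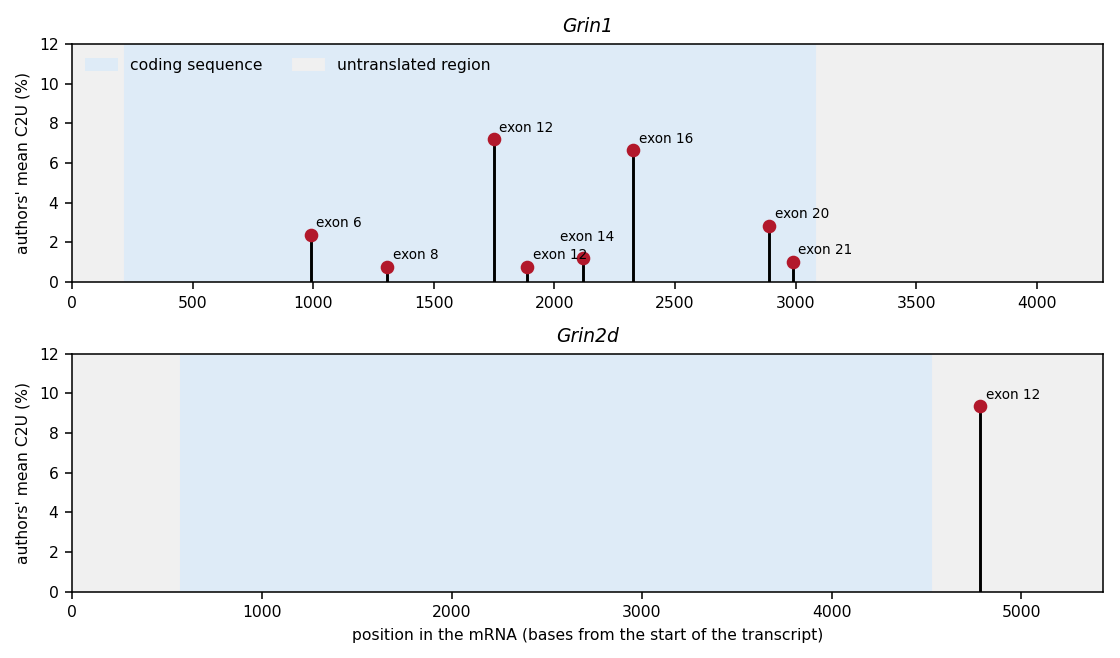
The authors' mean C2U editing (%, linear axis) of each called DART-seq site of Grin1 and Grin2d by its position in the mRNA (bases from the transcript start), with coding sequence shaded in blue and untranslated regions in grey. The 8 Grin1 sites all fall in coding sequence, led by those of exons 12 and 16 at 7.19% and 6.63%, and the Grin2d site falls in the 3′ UTR at 9.34%.

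The authors' editing score of an RNA is the sum of C2U fractions over its sites. For Grin1 it was 0.197 in WT and 0.0927 in the Mettl3 KO. The ratio of WT to KO was 2.12, where the median over RNAs with a KO score above 0 was 3.10. By compartment, the Grin1 score was 0.199 in soma and 0.194 in neurites. Grin1 thus had nearly the same score in both compartments, where the median over the 5643 RNAs was 0.0238 higher in neurites and 68.8% of RNAs had the higher score in neurites. The difference for Grin1, neurites minus soma, was -0.00513, and 27.6% of RNAs had a lower difference. The score of Grin2d was 0.0877 in WT and 0 in the KO, with 0.0857 in soma and 0.110 in neurites. The sum of the fractions in the deposited site list is 0.228 for Grin1 and 0.0934 for Grin2d, above the scores in WT, and the reason for the difference was not tested. Among the 11 sister ionotropic glutamate receptors (AMPA, kainate and delta types), 6 have a called site, with 9 sites in Gria2 and 7 each in Gria1 and Grik5.

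A called site needs reads over its own bases, so the level per exon length of the RNAs with no listed site was set beside that of other genes. Of the 3771 protein-coding genes at or above the mean WT level of Grin2b in CPM per kilobase, 80.9% have a called site, and of the 4440 at or above that of Grin2a, 78.9%. For Grin3a these values were 10295 genes and 51.8%, and for Grin2c 14453 genes and 38.0%. These shares include genes with far higher levels than the subunit itself, and coverage within long 3′ UTRs can differ from the mean over exons.

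Grin1 RNA was lower in neurites than in soma in WT neurons. In Ctrl cultures, Grin1 stood at 150 and 146 CPM in the 2 soma libraries and at 106 and 89.2 CPM in the 2 neurite libraries. The groups did not overlap, and the log2 fold change was -0.67 (SE 0.16, adjusted p = 0.0174, edgeR quasi-likelihood test with Benjamini-Hochberg adjustment), past the thresholds of 1.5-fold and adjusted p of 0.05. In KCl cultures, Grin1 stood at 188 and 268 CPM in soma and at 142 and 137 CPM in neurites, again without overlap, with a log2 fold change of -0.70 (SE 0.16, adjusted p = 0.0187, edgeR). Grin1 was the 1 member of 6 called in either condition. Among all genes tested, 13.6% were called in Ctrl (4.54% as lower in neurites) and 9.6% in KCl (2.73% as lower).

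The call rests on few libraries. In Ctrl the adjusted p was 0.138 without WT soma replicate 1, 0.136 without WT soma replicate 2, 0.112 without WT neurite replicate 2, and 0.881 when the KO libraries shared the estimate of the spread, with a log2 fold change between -0.76 and -0.57 throughout. In KCl it was 0.106 and 0.120 without WT neurite replicate 1 or 2, and without WT soma replicate 2 the log2 fold change was -0.40, under 1.5-fold. It was 0.0549 in KCl when the 4 libraries of the comparison were fitted alone and 0.987 with all 16 libraries. The neurite libraries also differed in cell type markers. The summed level of the 11 astrocyte markers was 1201 and 1218 CPM in WT soma Ctrl and 3267 and 2030 CPM in WT neurites Ctrl. Their median log2 fold change was 0.70, with 5 called higher and 0 lower. That sum for the 10 neuronal markers was 3988 and 4067 CPM against 5179 and 5777 CPM. Their median was only -0.08, where that of all genes was -0.10, with 2 called higher and 1 lower. The 7 interneuron markers were lower in neurites, at 658 and 693 CPM in soma and 620 and 540 CPM in neurites in Ctrl. In KCl they were at 1077 and 998 CPM against 721 and 701 CPM. Of the 7, 2 were called lower in neurites in Ctrl and 3 in KCl (median log2 fold changes -0.43 and -0.61). The summed level of the 5 excitatory hippocampal neuron markers was higher in neurites, at 477 and 494 CPM in soma and 551 and 600 CPM in neurites in Ctrl. In KCl it was 333 and 332 CPM against 443 and 410 CPM. Of the 5, 1 was called higher in each treatment, and the median log2 fold change was 0.06 in Ctrl and 0.46 in KCl. The Ctrl sum was thus higher without a like shift of the list as a whole. The part of these marker lists in the Grin1 result was not tested.

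The other 5 members were not called in either direction, with the values of the Ctrl cultures given first. Grin2b, at 296 and 276 CPM in soma Ctrl and 247 and 245 CPM in neurites Ctrl, had a log2 fold change of -0.28 (SE 0.13) whose 95% interval reached from -0.58 to 0.01. Grin2a, at 173 and 164 CPM in soma Ctrl and 150 and 156 CPM in neurites Ctrl, had -0.20 (SE 0.12, interval -0.47 to 0.06). Both soma libraries were above both neurite libraries for each of the pair, by less than 1.5-fold, and the intervals leave out a 1.5-fold enrichment in neurites. Grin3a had 0.00 (interval -0.33 to 0.34) and Grin2d -0.01 (interval -0.48 to 0.47) in Ctrl. In KCl, Grin2d stood at 3.17 and 3.70 CPM in soma and at 5.31 and 4.46 CPM in neurites without overlap, with a log2 fold change of 0.52 (interval 0.04 to 1.00, adjusted p = 0.146, edgeR). Grin2c, at 0.666 and 0.636 CPM in soma Ctrl and 1.45 and 0.804 CPM in neurites Ctrl, had 0.74 with an interval from -0.04 to 1.51, and in KCl it had -0.75 (interval -1.60 to 0.10). The median log2 fold change over the 6 members was -0.10 in Ctrl, where that of all genes tested was also -0.10, and -0.16 in KCl, where that of all genes was -0.03.

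Since Grin1 was lower in neurites and Grin2a and Grin2b less so, the ratio of Grin1 to the summed GluN2 RNAs per exon length differed between compartments. It was 0.690 and 0.711 in WT soma Ctrl and 0.567 and 0.468 in WT neurites Ctrl, and 0.949 and 1.12 in WT soma KCl and 0.675 and 0.717 in WT neurites KCl. The soma values were above the neurite values of the same treatment in every WT library. These ratios are a description without a test, and by coding length they were lower (0.486 and 0.502 in WT soma Ctrl, 0.404 and 0.335 in WT neurites Ctrl) with the same order of the compartments.

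**Figure D4:**
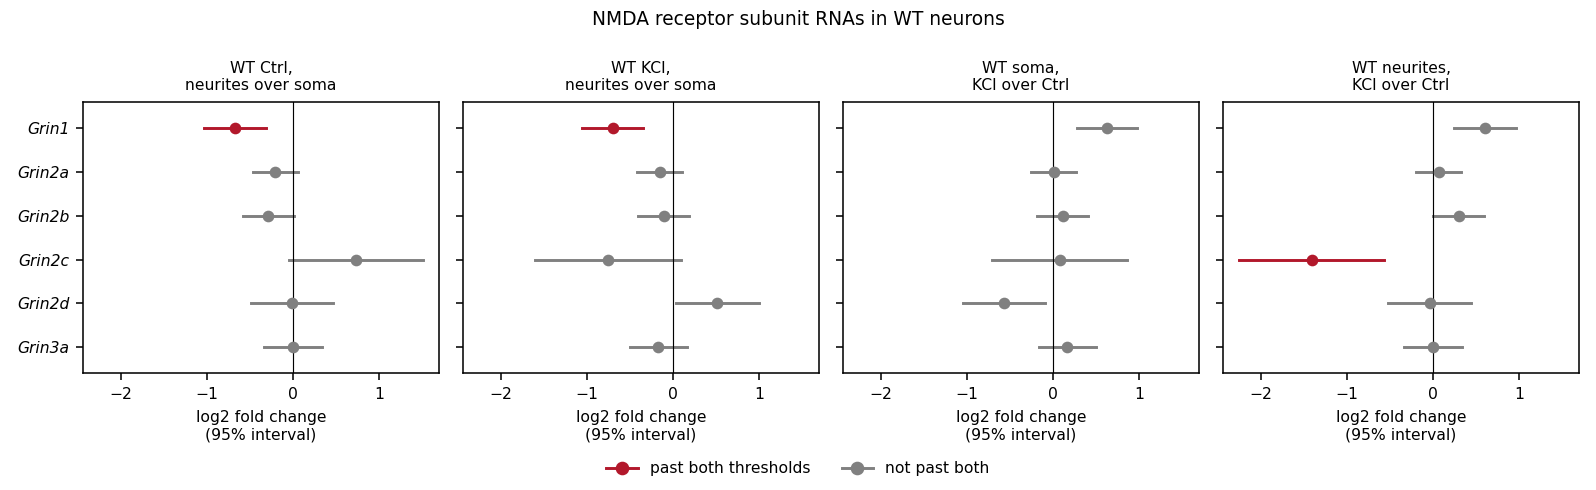
Log2 fold change (point) and 95% interval (line) of each member in 4 comparisons within WT from the edgeR fit, on a shared axis, with members past both the fold and the adjusted p threshold in red. Grin1 is past both in neurites against soma in Ctrl (-0.67) and KCl (-0.70), and Grin2c in neurites with KCl (-1.41).

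Several RNAs on the list of NMDA receptor scaffolds, anchors and adaptors were higher in neurites. Of 15 scaffolds and anchors, 5 were called higher in neurites in Ctrl and 5 in KCl, and none lower, where 9.01% and 6.87% of all genes were called higher. Dlg2 (PSD-93, a PDZ scaffold that binds GluN2 tails) had a log2 fold change of 1.21 (SE 0.15) in Ctrl and 0.86 (SE 0.15) in KCl, and Apba1 (Mint1, an adaptor of receptor transport) 1.08 (SE 0.16) and 1.28 (SE 0.16). Of 20 kinases, phosphatases and calcium effectors, 1 was called higher in Ctrl, namely Camk2a, the kinase subunit that docks on GluN2B, at 2.06 (SE 0.14), and 3 in KCl, with Camk2a at 1.77 (SE 0.14). The adjusted p of these calls was at most 0.00506 (edgeR). Dlg4 (PSD-95), at 1.25 (SE 0.19) in KCl, was also among the calls with the smallest p. Of the 9 genes on the list of co-agonist supply and transport, 8 were tested in Ctrl and 9 in KCl. Grina, a membrane protein named after a glutamate-binding subunit, was called lower in both (-0.66, SE 0.11, in Ctrl and -0.63, SE 0.11, in KCl). This call was not read as one on glycine or D-serine. The remaining calls in these lists, named after their values were seen, were higher levels in neurites of Lin7a, Dlg4 and Nefl in Ctrl and of Cask, Dlg1, Src and Ppp3cb in KCl. Of the 11 sister receptors, none was called higher in neurites, Grik3 was called lower in Ctrl (-0.68, SE 0.20), and Grik1 and Grik3 in KCl (-0.64, SE 0.15, and -0.74, SE 0.20). These kainate receptor subunits were likewise named after their values were seen. The AMPA receptor subunits Gria1 to Gria4 had values between -0.41 and -0.25 in Ctrl and between -0.31 and -0.17 in KCl and were not called. The difference between these and the NMDA receptor subunits was not tested.

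KCl depolarization was accompanied by higher Grin1 RNA in both compartments of WT neurons, without passing the threshold of 2-fold set for this response. In soma, Grin1 stood at 150 and 146 CPM in Ctrl and at 188 and 268 CPM in KCl, and in neurites at 106 and 89.2 CPM in Ctrl and at 142 and 137 CPM in KCl. The groups did not overlap in either compartment. The log2 fold change was 0.63 in soma (SE 0.16, 1.55-fold, adjusted p = 0.0252, edgeR) and 0.61 in neurites (SE 0.16, 1.52-fold, adjusted p = 0.0460, edgeR), so the adjusted p was under 0.05 in both in this fit and the fold was not past 2. In neurites the adjusted p was 0.0702 with the replicate number as a block, 0.0583 with RLE scaling in place of TMM, 1.00 with all 16 libraries, and 0.0828 to 0.220 when any 1 of the 4 libraries was left out. In soma it was 0.0545 with the 4 libraries alone, 1.00 with all 16 libraries, and 0.111, 0.120 and 0.0582 without Ctrl replicate 1, Ctrl replicate 2 or KCl replicate 2. The size in soma rested on 1 library: without WT soma KCl replicate 2 the log2 fold change was 0.34, and without replicate 1 it was 0.89. Cell type markers in WT soma went in both directions with KCl. The summed levels in Ctrl and KCl were 658 and 693 against 1077 and 998 CPM for the interneuron list. They were 3988 and 4067 against 5543 and 5186 CPM for the neuronal list and 1201 and 1218 against 1624 and 1638 CPM for the astrocyte list. The summed level of the 5 excitatory hippocampal neuron markers was lower, at 477 and 494 against 333 and 332 CPM. The median log2 fold change of these 5 was -0.16, with 0 of 5 called. Medians of the interneuron, neuronal and astrocyte lists were 0.64, 0.31 and 0.26, with 1 gene called higher in each. The oligodendrocyte lineage list overlapped, at 60.1 and 68.5 against 61.5 and 57.2 CPM. The neuronal list includes Nefl, which was itself called higher with KCl in soma. The part of these lists in the Grin1 result was not tested. The 95% intervals reached 0.98 in soma and 0.97 in neurites on the log2 scale. In soma, 0 of 6 members were called, where 6.7% of all genes were (3.74% as higher and 2.96% as lower), and in neurites 1 of 6, where 5.03% of all genes were (3.33% as higher and 1.7% as lower).

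That 1 member was Grin2c. It stood at 1.45 and 0.804 CPM in WT neurites Ctrl and at 0.380 and 0.426 CPM in WT neurites KCl, which are 75, 27, 16 and 21 fragments. Both KCl libraries were below both Ctrl libraries, and the log2 fold change was -1.41 (SE 0.38, adjusted p = 0.0460, edgeR). In soma, Grin2c stood at 0.666 and 0.636 CPM in Ctrl and at 0.707 and 0.668 CPM in KCl. The call was lost with DESeq2 (adjusted p = 0.0613), in a fit of the 4 libraries alone (0.117), with the replicate number as a block (0.0733), with all 16 libraries (0.520), and without WT neurite Ctrl replicate 1 (0.179, log2 fold change -0.94) or either of the KCl libraries (0.173 without replicate 1 and 0.202 without replicate 2). The highest of these values, that of WT neurites Ctrl replicate 1, came from the WT library with the highest summed level of astrocyte markers, at 3267 CPM against 2030 CPM in replicate 2 and 2317 and 2769 CPM in the KCl libraries. Among the KO libraries, neurites Ctrl replicate 1 held 7152 CPM of these markers and 1.84 CPM of Grin2c. The KO KCl culture 1 held 9592 CPM in soma and 18572 CPM in neurites, with Grin2c at 0.905 and 0.631 CPM. The part of these markers in the result was not tested.

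The other members moved little with KCl. Grin2a had log2 fold changes of 0.01 (interval -0.25 to 0.28) in soma and 0.07 (-0.19 to 0.33) in neurites, and Grin3a of 0.17 (-0.16 to 0.50) and 0.00 (-0.33 to 0.34). For Grin2a and Grin3a these intervals leave out a 1.5-fold change in either compartment. Grin2b had 0.12 (-0.18 to 0.41) in soma and 0.30 (0.00 to 0.60) in neurites with an adjusted p of 0.217 (edgeR). Grin2d stood at 5.08 and 5.08 CPM in soma Ctrl and at 3.17 and 3.70 CPM in soma KCl without overlap, with -0.56 (SE 0.22, adjusted p = 0.121, edgeR), and in neurites it had -0.03 (interval -0.52 to 0.45). The median log2 fold change over the 6 members was 0.10 in soma and 0.04 in neurites, where that of all genes was 0.01 in both. Among the partner and sister lists, 1 gene of 55 was called in soma, namely Nefl, a neurofilament subunit that binds GluN1 (1.54, SE 0.16), and 0 in neurites. The AMPA receptor subunits Gria1 to Gria4 had log2 fold changes between 0.09 and 0.43, under the threshold of 2-fold.

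Whether KCl shifted the balance between soma and neurites was tested as a change of neurite enrichment, with 1 term for each culture insert and the study's threshold of 1.5-fold and an unadjusted p of 0.05. Under that rule 3.36% of genes were called (2% as higher and 1.35% as lower), and 0 of 23200 at an adjusted p of 0.05 in edgeR, where 966 had an unadjusted p under 0.05. For Grin1 the change was 0.00 on the log2 scale (SE 0.23, interval -0.51 to 0.52), since it was higher with KCl by nearly the same factor in both compartments. Grin2c was the 1 member of 6 called, with -1.45 (SE 0.57, unadjusted p = 0.0320, adjusted p = 0.999, edgeR). Its ratio of neurites to soma was 2.18 and 1.26 in the 2 Ctrl inserts and 0.536 and 0.637 in the 2 KCl inserts. The unadjusted p was 0.0874 with DESeq2, 0.133 with all 16 libraries, 0.162 without the WT Ctrl insert 1, and 0.126 and 0.0912 without the KCl inserts 1 and 2. Grin2a, Grin2b, Grin2d and Grin3a had changes of 0.06, 0.19, 0.54 and -0.16 and were not called.

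No member passed the thresholds in Mettl3 KO against WT. The KO and WT cultures came from different mouse lines and litters, so genotype cannot be told apart from line or litter. In Ctrl soma 0 of 6 and in Ctrl neurites 0 of 6 members were called, where 0.185% and 0.188% of all genes were, or 44 and 41 genes (0.0632% as higher and 0.122% as lower in soma, 0.0642% and 0.124% in neurites). When 1 library was left out, 4 to 2705 genes were called in soma, the most without KO soma Ctrl replicate 1, and 4 to 14 in neurites, with 0 members throughout. For Grin1, the RNA with the called m6A sites, the log2 fold change of KO against WT was 0.09 in soma (SE 0.58, interval -1.16 to 1.35) and 0.24 in neurites (SE 0.58). Its values in KO Ctrl were 127 and 186 CPM in soma and 141 and 93.2 CPM in neurites, around those of WT. In this fit the intervals include a 2-fold change in either direction. They narrowed without the 2 libraries of the KO KCl culture 1, where the log2 fold change of Grin1 was 0.06 (SE 0.26) in soma and 0.27 (SE 0.26) in neurites. For Grin2d, which carries the other site, the KO values were 6.83 and 20.3 CPM in soma and 14.3 and 8.05 CPM in neurites, against 5.08 and 5.08 CPM and 4.61 and 6.01 CPM in WT. All 4 KO Ctrl libraries were above all 4 WT Ctrl libraries, with log2 fold changes of 1.41 (SE 0.59, adjusted p = 0.497, edgeR) and 1.04 (SE 0.58, adjusted p = 0.793, edgeR). The size rests on single libraries: in soma it was 0.48 without KO replicate 2 and 1.95 without KO replicate 1, and in neurites 0.63 without KO replicate 1.

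Among the members with no listed site, Grin3a and Grin2a were lower in the KO libraries without being called. Grin3a stood at 11.0 and 7.12 CPM in KO soma Ctrl and at 7.24 and 5.85 CPM in KO neurites Ctrl, against 16.1 and 14.5 CPM and 15.3 and 16.8 CPM in WT. All 4 KO Ctrl values were below all 4 WT Ctrl values. The log2 fold change was -0.72 in soma (SE 0.38, adjusted p = 0.622, edgeR) and -1.32 in neurites (SE 0.39, adjusted p = 0.330, edgeR). In neurites Grin3a passed both thresholds when limma-voom let the libraries differ in spread (-1.30, adjusted p = 0.0194). It also passed when the 2 libraries of the KO KCl culture 1 were left out of the fit (-1.29, adjusted p = 0.0456, edgeR), a setting added after seeing the data. These settings called 543 and 270 genes in neurites, where the main fit called 41. In the KO KCl culture 1 Grin3a was at 13.0 CPM in soma and 15.0 CPM in neurites, the highest of the KO libraries. Grin2a stood at 119 and 109 CPM in KO soma Ctrl and at 74.0 and 93.1 CPM in KO neurites Ctrl, all below the lowest WT value of 146 CPM, with log2 fold changes of -0.54 (SE 0.63) and -0.89 (SE 0.63). Grin2b had -0.36 (SE 0.48) and -0.33 (SE 0.48), and Grin2c 0.39 (SE 0.58) and 0.07 (SE 0.57). Cell type markers also differed between the genotypes. In neurites Ctrl the neuronal list summed to 3578 and 3930 CPM in the KO and 5179 and 5777 CPM in WT (median log2 fold change -0.59). In soma Ctrl this list overlapped, at 3271 and 4266 CPM against 3988 and 4067 CPM (median -0.17). The astrocyte list summed in soma Ctrl to 2473 and 2062 CPM in the KO against 1201 and 1218 CPM in WT (median 0.95). In neurites Ctrl it overlapped, at 7152 and 2934 CPM against 3267 and 2030 CPM (median 0.83). In either compartment 0 of 10 neuronal and 0 of 11 astrocyte genes were called, where 0.185% of all genes were in soma and 0.188% in neurites. The part of these markers in the values of the members was not tested.

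**Figure D5:**
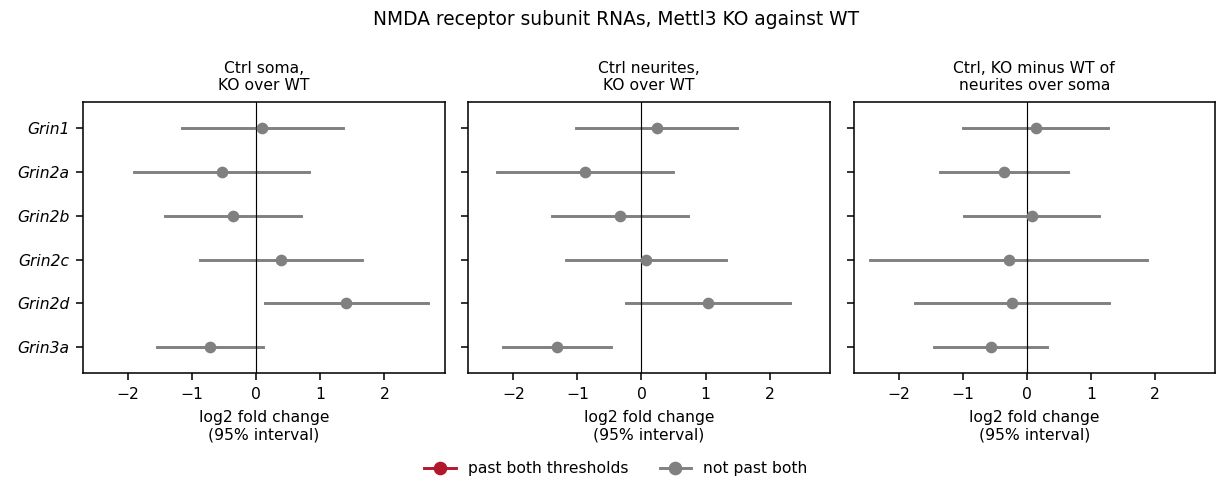
Log2 fold change (point) and 95% interval (line) of each member for Mettl3 KO against WT in Ctrl soma, in Ctrl neurites, and for the change of neurite enrichment, from the edgeR fit of 16 libraries on a shared axis. All points are grey, since 0 of 6 members were past both thresholds in each panel, and Grin3a in neurites (-1.32) and Grin2d in soma (1.41) lie farthest from 0 in the panels of levels.

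The neurite enrichment of the members was not called as changed in the KO, where 4.19% of genes were called by the unadjusted rule (2.91% as higher and 1.28% as lower) and 0 of 22942 at an adjusted p (963 had an unadjusted p under 0.05, edgeR). The change for Grin1 was 0.14 (SE 0.49), and the ratio of neurites to soma was 1.11 in the KO Ctrl insert 1 and 0.501 in insert 2, on either side of the WT inserts (0.705 and 0.612). Grin3a had -0.56 (SE 0.39) and Grin2a -0.36 (SE 0.44), with ratios in the KO of 0.657 and 0.821 for Grin3a and of 0.624 and 0.857 for Grin2a. The KO Ctrl inserts also pulled apart for Grin2d, at 2.09 and 0.398, and for Grin2c, at 4.59 and 0.448. Without the KO Ctrl insert 1 the change was -1.32 for Grin2d and -1.85 for Grin2c, while without insert 2 the signs were positive (0.93 and 1.35). Of the 55 partner and sister genes, 1 was called, Grik1 at -0.76 (SE 0.32), lower in neurites relative to soma in the KO.

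The KO cultures treated with KCl were not part of a test, and their values are given side by side. Grin1 stood at 122 and 260 CPM in KO soma KCl and at 30.4 and 170 CPM in KO neurites KCl. Grin2a stood at 39.0 and 105 CPM in soma and at 11.9 and 80.0 CPM in neurites, and Grin2b at 110 and 192 CPM in soma and at 50.7 and 191 CPM in neurites. In each of these pairs the first value is from culture 1, the one with the high oligodendrocyte lineage markers, and is the lower one. For Grin2d the values were 2.63 and 5.87 CPM in soma and 1.74 and 5.43 CPM in neurites. The 2 libraries of culture 2 held Grin1 within the range of the 4 WT KCl libraries, and Grin2a, Grin2b and Grin3a (10.2 and 6.74 CPM) below the lowest WT value of each.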

How the data were processed

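RNA-seq was analysed in 16 libraries. The authors aligned reads to mm10 with STAR 2.7.7a and counted fragments per gene with featureCounts 2.0.1 (multi-mapping reads counted, no strand option), and the deposited values are raw counts. Opposite-strand genes share exon bases with Grin1 (Grin1os, 1307 of 9700 bases) and Grin2d (Gm45441, 643 of 6658), so their reads cannot be told apart there. In the DART-seq tables the authors deposited the number of called sites, an editing score per RNA and a C2U fraction per site, each averaged over libraries. The authors' DESeq2 tables, which hold their own fold changes and p-values, were used for symbols only.

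Counts were fitted in edgeR 4.0.16 (TMM scaling, two-sided quasi-likelihood F-tests), with Benjamini-Hochberg adjustment over all genes whose mean count reached 10 and mitochondrial genes left out, within WT on 8 libraries, since the KO libraries varied far more, and for KO against WT on 16. A gene was called at an adjusted p of at most 0.05 and 1.5-fold (2-fold for KCl), and a change of neurite enrichment at an unadjusted p of at most 0.05 and 1.5-fold. That fit pairs libraries by the insert number in the labels, as the study did. DESeq2 1.42.0, limma 3.58.1 and other settings were alternatives. Sites were placed with GENCODE M21 and read from GRCm38. Intervals are 95% and rest on the shared spread. A lack of overlap between libraries is a description, and the share of all genes without overlap was not counted. Members, lists and tests were chosen with earlier results of these data known. By rule the text names all 6 members and Mettl3, up to 4 called list genes of smallest p a comparison and, for each member with a mean of at least 1 CPM, the 3 most alike genes.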

Additional observations from a re-analysis of the deposited data

Results flagged for a closer look

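Grin2c differed between treatments in its balance of neurites and soma in WT: the change of neurite enrichment with KCl was -1.45 on the log2 scale (unadjusted p = 0.0320, adjusted p = 0.999, edgeR, interaction of compartment and treatment with 1 term per insert). The ratio of neurites to soma was 2.18 and 1.26 in Ctrl and 0.536 and 0.637 in KCl, from 16 to 75 fragments a library. Its unadjusted p ranged from 0.0138 to 0.162 when 1 insert was left out.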

How the results depend on the processing

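Of 518 values of single members under alternatives, 444 kept their direction and their side of the threshold, 22 lost a call, 4 gained one and 48 changed sign. Grin1 kept a lower value in neurites in WT under all alternatives run (-0.76 to -0.57 in Ctrl, -0.92 to -0.40 in KCl). The cause of the changes below was not tested. The depth limits Grin2c, at 16 to 80 fragments a library, and the DART-seq depth is unknown.

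The replicate numbers were not shown to pair the WT libraries. Deviations from the group means correlated by -0.137 between soma and neurites in WT Ctrl and by 0.0329 in WT KCl. Between treatments they correlated by 0.0760 in WT soma and by -0.0753 in WT neurites. In the KO, soma and neurites correlated by 0.897 in KCl, where both libraries of culture 1 stood apart, and by 0.0759 in Ctrl. With the replicate number as a block, the genes called were 2845 (WT Ctrl neurites against soma), 1986 (WT KCl), 1503 (KCl in soma), 1027 (KCl in neurites), 50 (KO in soma) and 44 (KO in neurites), and the block left 0 members called for KCl in neurites and changed no other member's call. Grin3a in WT Ctrl was -0.00 with the block (-0.00082). Without the block, the KCl change of enrichment had 858 genes called and Grin1 at -0.03 (-0.027), and the KO change of enrichment had 296 genes called. With the WT Ctrl numbers crossed, a pairing added after seeing the data, 3266 genes were called in WT Ctrl and 887 for the KCl change of enrichment.

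With all 16 libraries in 1 fit, 0 genes were called in WT Ctrl and 0 in WT KCl, 341 for KCl in soma, 263 for KCl in neurites and 291 for the KCl change of enrichment, with 0 members called in each comparison that had 1. With no count filter the counts were 1761 for KCl in neurites, 1457 for the KCl change of enrichment, 505 and 353 for the KO in soma and neurites, and 2676 for the KO change of enrichment. DESeq2 gave 498 for the KCl change of enrichment, 417 and 313 for the KO in soma and neurites and 1584 for the KO change, with 0 members for KCl in neurites and for the KCl change. At an adjusted p, both changes of enrichment had 0 genes and 0 members. The 4 libraries alone left 0 members in WT KCl and in KCl neurites, 0 genes for the KO in soma and 136 in neurites, and the 8 Ctrl libraries alone left 347 for the KO change. With limma-voom sample weights, 19 and 543 genes were called for the KO in soma and neurites, and without the KO KCl culture 1 libraries, an alternative added after seeing the data, 419 and 270. Each of these 2 settings called 1 member in neurites, Grin3a.

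Under settings that kept all libraries of a comparison, the signs that changed were of values between -0.11 and 0.099. Grin2d in WT Ctrl was 0.031 (DESeq2), 0.032 (RLE), 0.0084 (no filter), 0.072 (4 libraries) and 0.099 (16 libraries). Grin3a with KCl in neurites was -0.037 (DESeq2), -0.037 (RLE), -0.0058 (no filter), -0.027 (4 libraries) and -0.039 (16 libraries). The KCl change of enrichment of Grin1 was -0.064 (DESeq2), -0.064 (RLE), -0.00073 (no filter) and -0.11 (16 libraries), and that of Grin2a -0.0097 (DESeq2), -0.0097 (RLE) and -0.057 (16 libraries). Grin2c for the KO in neurites was -0.084 with limma-voom.

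Leaving out 1 library or insert, the genes called ranged from 1068 to 3694 (WT Ctrl), 752 to 2395 (WT KCl), 812 to 1522 (KCl in soma), 576 to 1186 (KCl in neurites), 533 to 1627 (KCl change), 4 to 2705 (KO in soma), 4 to 14 (KO in neurites) and 243 to 4934 (KO change), the upper ends for the KO in soma without KO soma Ctrl replicate 1 and for the KO change without the KO Ctrl insert 1. The members called ranged from 0 to 1 in WT Ctrl, WT KCl, KCl in neurites and the KCl change, and from 0 to 2 in the KO change. Log2 ranges that crossed 0 were, in WT Ctrl, -0.24 to 0.21 (Grin2d) and -0.10 to 0.15 (Grin3a), and in WT KCl -0.25 to 0.091 (Grin2b). For KCl they were -0.10 to 0.14 (Grin2a) and -0.075 to 0.30 (Grin2b) in soma and -0.25 to 0.20 (Grin2d) and -0.10 to 0.10 (Grin3a) in neurites. For the KCl change they were -0.30 to 0.32 (Grin1), -0.12 to 0.24 (Grin2a), -0.077 to 0.47 (Grin2b) and -0.34 to 0.016 (Grin3a). For the KO they were -0.17 to 0.29 (Grin1) and -0.64 to 0.96 (Grin2c) in soma, -0.031 to 0.50 (Grin1) and -0.91 to 0.68 (Grin2c) in neurites, and -0.33 to 0.67 (Grin1), -0.39 to 0.61 (Grin2b), -1.85 to 1.35 (Grin2c) and -1.32 to 0.93 (Grin2d) for the change of enrichment.

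The mean share of Grin2b in the GluN2 RNAs, 52.8% in WT soma Ctrl and 50.9% in WT neurites Ctrl per exon length, was 62.1% and 60.6% from raw counts and 61.8% and 60.2% by coding length. The DART-seq score of Grin1, 0.197, was 0.0246 as a mean over sites and 0.228 as the sum of the site list, and that of Grin2d was 0.0934 as the sum of the site list.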

Other observations

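The genes most alike each member were sought among 12691 protein-coding genes whose mean count reached 100, by Pearson's r of log2 CPM over the 16 libraries. Soma and neurites of a culture share their cells, and the 2 libraries of the KO KCl culture 1 lie far from the others, so the values describe these libraries and carry no test. For Grin2a they were Unc5d (0.989), Gpr158 (0.981) and Oxtr (0.980), and for Grin2b Plxna4 (0.984), Gria1 (0.974) and Spock1 (0.974). For Grin1 they were Rsph6a (0.943), Capn12 (0.942) and Foxb1 (0.941). For Grin2d they were Galnt9 (0.977), Trim28 (0.970) and Sema6b (0.966), and for Grin3a Sema3c (0.950), Atf6 (0.934) and Piezo2 (0.919). Grin2c, with a mean under 1 CPM, was left out.

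Grin1os, the long noncoding RNA on the opposite strand that shares exon bases with Grin1, stood at 0.551 and 0.381 CPM in WT soma Ctrl and at 1.01 and 1.71 CPM in WT soma KCl, with a log2 fold change of 1.54 (SE 0.39, adjusted p = 0.0256, edgeR), past the threshold of 2-fold. In WT neurites it stood at 0.213 and 0.238 CPM in Ctrl and at 0.356 and 0.507 CPM in KCl (1.03, SE 0.49, adjusted p = 0.247, edgeR). The counts do not use strand, so reads of Grin1os and of unspliced or readthrough RNA of Grin1 cannot be told apart.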
